A study of Mus musculus with 9 samples.

Results

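The endothelin and angiotensin axis was followed through 7 genes (Edn1, Ece1, Ednra, Ednrb, Agt, Ace and Agtr1a) in mouse activated hepatic stellate cells (aHSCs), the cells that lay down scar in injured liver. Every probe whose symbol in the deposited annotation was 1 of these 7 names was taken, which gave 12 of 45281 gene probes and 7 of 30869 annotated symbols. A single probe of another gene, Mgmt, which lists AGT among its synonyms, was not counted. The platform was the Illumina MouseWG-6 v2.0, and each of the 9 samples, 3 to a group, filled 1 array. The labels give all donors as male C57/Bl6 mice of genotype WT1GFP/+, whereas the study's methods state male mice for in vivo work and both sexes for in vitro work. These mice carry green fluorescent protein (GFP) at 1 WT1 allele, so every group, the WT1-negative one included, shared that allele. WT1-high (GFP high; replicates 1, 8 and 29) and WT1-intermediate (GFP low; replicates 1, 8 and 30) aHSCs were sorted directly from livers chronically injured with intraperitoneal carbon tetrachloride (CCl4), and the study states that they came from 3 animals. WT1-negative aHSCs (GFP negative; replicates 3, 11 and 14) were sorted after quiescent cells from uninjured WT1GFP/+ livers had been activated for 7 days on plastic. WT1 status and the route of activation therefore cannot be told apart in either comparison with the WT1-negative group, and those 2 comparisons share their control arrays.

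Endothelin and angiotensin are vasoconstrictor peptides that act on the hepatic sinusoid. Endothelin precursors are cleaved by endothelin converting enzyme, encoded by Ece1, and act on the receptors encoded by Ednra, which drives contraction of mural cells, and Ednrb, which in endothelium clears endothelin and couples to nitric oxide release. Angiotensinogen, the product of Agt, is made chiefly by hepatocytes and is cut by renin and then by angiotensin converting enzyme (Ace) to the peptide that acts on the type 1a receptor, Agtr1a. Both peptides are known to make activated stellate cells contract, divide and deposit collagen.

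Levels below are log2 values of background-corrected, quantile-normalized intensity. Probes detected on no array had a median level of 4.24, and the lowest level among detected probes lay between 4.48 and 4.65 across arrays. A probe was tested if it was detected (detection p under 0.05) on at least 3 arrays, and a call is an adjusted p under 0.05. Of the 12 member probes 10 were tested, and all 7 genes had at least 1 tested probe. Mean signals lay between 231 and 289 in WT1-high, 148 and 221 in WT1-intermediate, and 246 and 256 in WT1-negative arrays, and 38.1% to 43.7% of probes were detected on each. Different probes bind with different strength, so a level was compared only between groups for the same probe. The samples were bulk preparations, in which fewer cells of a type and less RNA per cell cannot be told apart.

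The axis split into a part that was higher in cultured WT1-negative cells (Edn1, Ednrb and, against WT1-high, Ednra) and a part that was higher in both populations from fibrotic liver (Agtr1a and Ace). The largest differences were those of Ednrb, 44.5-fold lower in WT1-high and 23.1-fold lower in WT1-intermediate than in WT1-negative aHSCs on its brightest probe. Agtr1a differed by 12.3-fold and 9.44-fold in the opposite direction. Between WT1-high and WT1-intermediate the differences were smaller, and Ace, 2.33-fold lower in WT1-high, was the larger of 2 calls. Agt lay close to background on all 9 arrays.

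**Figure D1:**
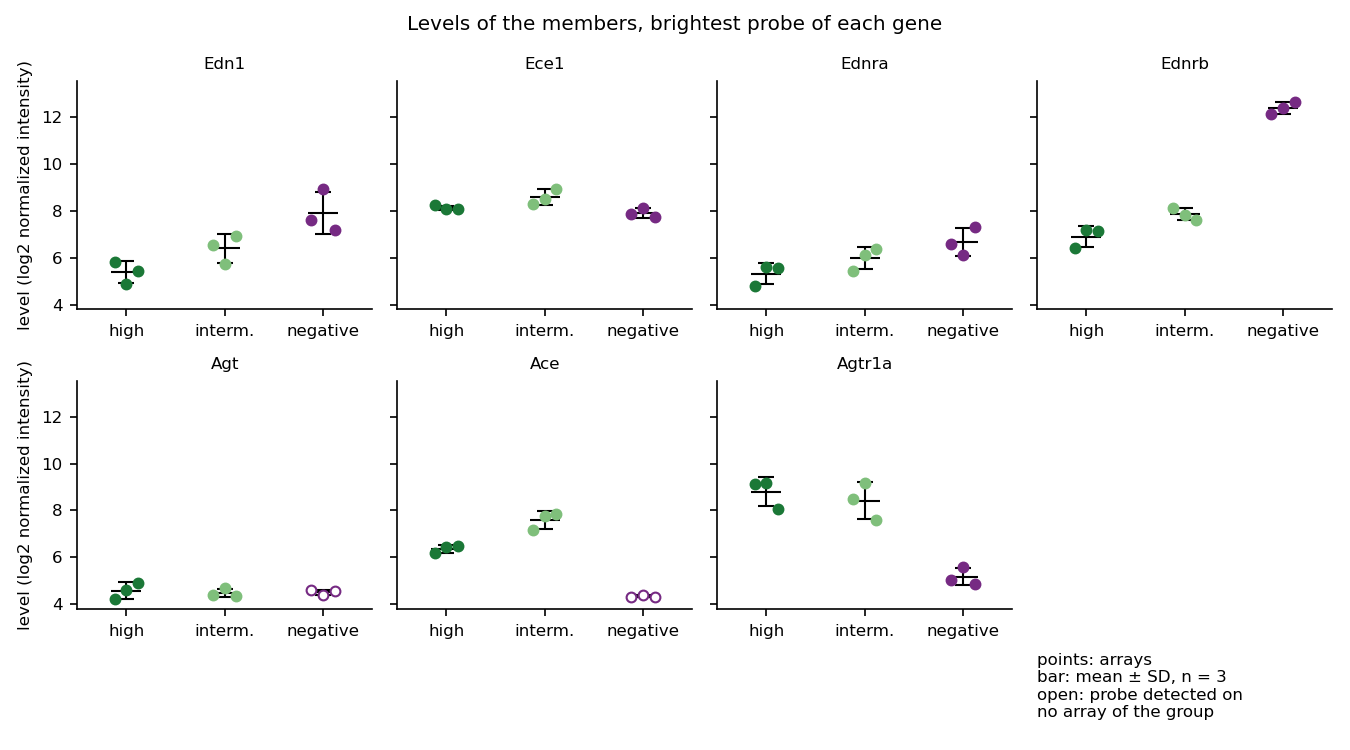
Level of each member on its brightest probe (y axis, log2 normalized intensity) in the 3 groups (x axis: WT1-high, WT1-intermediate, WT1-negative). Points are arrays, bars are mean ± SD (n = 3), and open points mark groups in which no array detected the probe. Ednrb stood above 12 on all 3 WT1-negative arrays and Agtr1a above 7.5 on all 6 in vivo arrays, and the panels share a y axis although levels of different probes are not comparable.

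Of the ligands and precursors, Edn1 (chromosome 13; probe ILMN_2737713) was detected on every array. Edn1 read 5.83, 4.88 and 5.45 in WT1-high replicates 1, 8 and 29, and 6.52, 5.73 and 6.94 in WT1-intermediate replicates 1, 8 and 30. In WT1-negative replicates 3, 11 and 14 it read 7.62, 8.92 and 7.18. The WT1-negative arrays were above all 6 others, whereas the WT1-high and WT1-intermediate ranges overlapped. Group means were 5.39 ± 0.48, 6.40 ± 0.61 and 7.91 ± 0.90 (SD, n = 3). Edn1 was lower in WT1-high than in WT1-negative cells by a log2 difference of -2.52 ± 0.43 (SE; adjusted p = 0.00041) and in WT1-intermediate by -1.51 ± 0.43 (adjusted p = 0.011). That second call was lost when all 45281 probes were tested without a filter (adjusted p = 0.059). Its difference of -1.01 between WT1-high and WT1-intermediate had a 95% interval of -1.95 to -0.07 and did not pass the adjusted threshold (adjusted p = 0.26).

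Agt (chromosome 8; ILMN_1227398), the angiotensin precursor, was detected on 2 WT1-high arrays, 1 WT1-intermediate array and none of the WT1-negative arrays. Its levels lay between 4.21 and 4.93 throughout. The 3 group means were 4.59 ± 0.36, 4.49 ± 0.17 and 4.51 ± 0.10 (SD, n = 3), and no difference exceeded the spread between arrays (adjusted p = 0.84, 0.75 and 0.92). At these intensities a difference in Agt was not detectable. Of 14 hepatocyte genes 11 were tested, and 8 of them were higher and 1 lower in WT1-high than in culture (4 and 1 for WT1-intermediate), while Alb and Fgb were detected on no array. Over all tested probes 26.5% were higher and 33.1% lower in WT1-high, and 24.4% and 33.6% in WT1-intermediate. Of the hepatocyte genes counted as higher, Apoa1, Serpina1a and Apoh were detected on no culture array, so the filter favoured a difference from culture. Ttr averaged 8.70, 8.65 and 5.02 in the 3 groups and Ahsg 8.60, 7.88 and 5.84. The part of hepatocyte RNA in the Agt values was not tested.

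Ece1 (chromosome 4) was read by a pair of probes that differed in direction. The brighter, ILMN_2745993, read 8.23, 8.06 and 8.08 in WT1-high, 8.27, 8.50 and 8.93 in WT1-intermediate, and 7.84, 8.12 and 7.71 in WT1-negative arrays, replicates in the order given above. The 3 WT1-intermediate arrays were above all others. On this probe WT1-intermediate exceeded culture by 0.67 ± 0.19 (SE; adjusted p = 0.0098), a difference that under median scaling became -0.06 (adjusted p = 0.85). WT1-high did not differ from WT1-negative beyond the spread (0.23, 95% interval -0.18 to 0.65). The dimmer probe, ILMN_1255063, was detected on 6 of 9 arrays and lay between 4.47 and 5.66. It was lower in both in vivo groups, by -0.74 in WT1-high (adjusted p = 0.006) and by -0.68 in WT1-intermediate (adjusted p = 0.010; 0.072 under cyclic loess), so the direction of Ece1 depended on the probe. The first 30 bases of both 50-base probes are shown because they report different stretches of the transcript, with a longest shared run of 6 bases.
Ece1 ILMN_2745993: attgctcagggtgtgcagggagccaaggca
Ece1 ILMN_1255063: agcagacgctgcccaccctgggtctcacca

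Ace, the enzyme that forms the active angiotensin peptide, was detected on all 6 in vivo arrays and on no WT1-negative array by probe ILMN_2424060. The WT1-high arrays read 6.17, 6.45 and 6.48 and the WT1-intermediate arrays 7.15, 7.77 and 7.85. The WT1-negative arrays read 4.30, 4.39 and 4.33, which is background. The 3 groups did not overlap. Set against the background limit of the culture arrays, the excess of Ace was at least 3.39-fold in WT1-high (adjusted p = 4.9e-06) and at least 7.91-fold for WT1-intermediate aHSCs (adjusted p = 1.8e-07). Because no culture array detected it, the probe passed the filter through the in vivo arrays alone and had to differ in these comparisons. WT1-high was below WT1-intermediate by -1.22 ± 0.19 (SE; adjusted p = 0.0063), and means were 6.37 ± 0.17 and 7.59 ± 0.38 (SD, n = 3). Of 20 alternatives the difference lost its call under median scaling (-0.55, adjusted p = 0.17, range 0.00073 to 0.17), where the median over all tested probes was itself 0.45 and Ace lay at -1.0 relative to that median. The other Ace probes, ILMN_2613682 and ILMN_2613683, were detected on 0 and 1 of 9 arrays and were not tested. They are nearly the same oligonucleotide, moved by a single base, and the first 30 bases of each Ace probe are shown with the shared run in capitals (49 of 50 bases in full). The probe that gave signal shares no run over 4 bases with them.
Ace ILMN_2424060: ccctcagcctcagccatcctttggaaggcc
Ace ILMN_2613682: gTCCTAGGCTGGCCAGAGAATCAGTGGCGT
Ace ILMN_2613683: TCCTAGGCTGGCCAGAGAATCAGTGGCGTC

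Of the receptors, Ednra (chromosome 8; ILMN_2674351), the contractile endothelin receptor, read 4.79, 5.62 and 5.54 in WT1-high arrays. It read 5.45, 6.11 and 6.35 in WT1-intermediate and 6.59, 6.09 and 7.29 in WT1-negative arrays. Neighbouring groups overlapped, and the ends of the order did not. Ednra was lower in WT1-high than in WT1-negative cells by -1.34 ± 0.33 (SE; adjusted p = 0.0047), with means of 5.31 ± 0.46 and 6.66 ± 0.60 (SD, n = 3). The differences of -0.69 between WT1-intermediate and WT1-negative (adjusted p = 0.095) and of -0.65 between WT1-high and WT1-intermediate (adjusted p = 0.35) did not pass, although the former passed under median scaling (-1.16), with array weights (-1.01) or without WT1-negative replicate 11 (-0.97). Their 95% intervals were -1.42 to 0.04 and -1.38 to 0.08, so differences of more than 1 log2 unit were compatible with either.

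Ednrb (chromosome 14) was the member with the strongest contrast and was read by 3 probes. ILMN_2589640 read 6.40, 7.17 and 7.12 in WT1-high, 8.11, 7.81 and 7.60 in WT1-intermediate, and 12.11, 12.37 and 12.64 in WT1-negative arrays. ILMN_2917471 read 5.36, 6.38 and 6.38, then 7.14, 6.5 and 6.57, then 9.26, 8.56 and 9.40. ILMN_2717765 was detected on no in vivo array (4.18 to 4.30) and read 8.67, 9.90 and 9.50 in culture. On all 3 probes the culture arrays were far above both in vivo groups. The log2 differences of WT1-high from WT1-negative were -5.48 ± 0.23, -3.04 ± 0.31 and -5.14 ± 0.25 (SE; adjusted p = 1.2e-08, 8.5e-06 and 3.4e-08). Those of WT1-intermediate were -4.53 ± 0.23, -2.34 ± 0.31 and -5.12 ± 0.25 (adjusted p = 5.8e-08, 7.4e-05 and 4.5e-08). The probe undetected in vivo passed the filter through the culture arrays alone and so had to differ, and its difference is a bound, at least 28.1-fold lower in WT1-high and at least 27.8-fold lower in WT1-intermediate cells.

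Within the in vivo cells, Ednrb was called lower in the WT1-high arrays on ILMN_2589640 only (-0.95 ± 0.23, SE; adjusted p = 0.049). On ILMN_2917471 the difference was -0.70 (adjusted p = 0.28), with groups that did not overlap either, and ILMN_2717765 was at background in both. The call rested on the setting. It was lost under 15 of 21 alternatives, with adjusted p from 0.014 to 0.61, among them leaving out any 1 array other than WT1-intermediate replicate 30 (0.059 to 0.18). With replicates 1 and 8 as blocks the difference was -1.18 (adjusted p = 0.062), with 29 and 30 taken as a further pair it was -0.95 (adjusted p = 0.036), and with a random block it was -1.01 (adjusted p = 0.014). The first 30 bases of the 3 probes are shown because all of them put Ednrb highest in culture although they share no run over 6 bases.
Ednrb ILMN_2589640: ctctggtcacctaaagtggcagcttgtgtc
Ednrb ILMN_2917471: ggatgttagaggtcaaacgatttgtaagtg
Ednrb ILMN_2717765: taacttactgttaaggcgcgggtagaggca

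**Figure D2:**
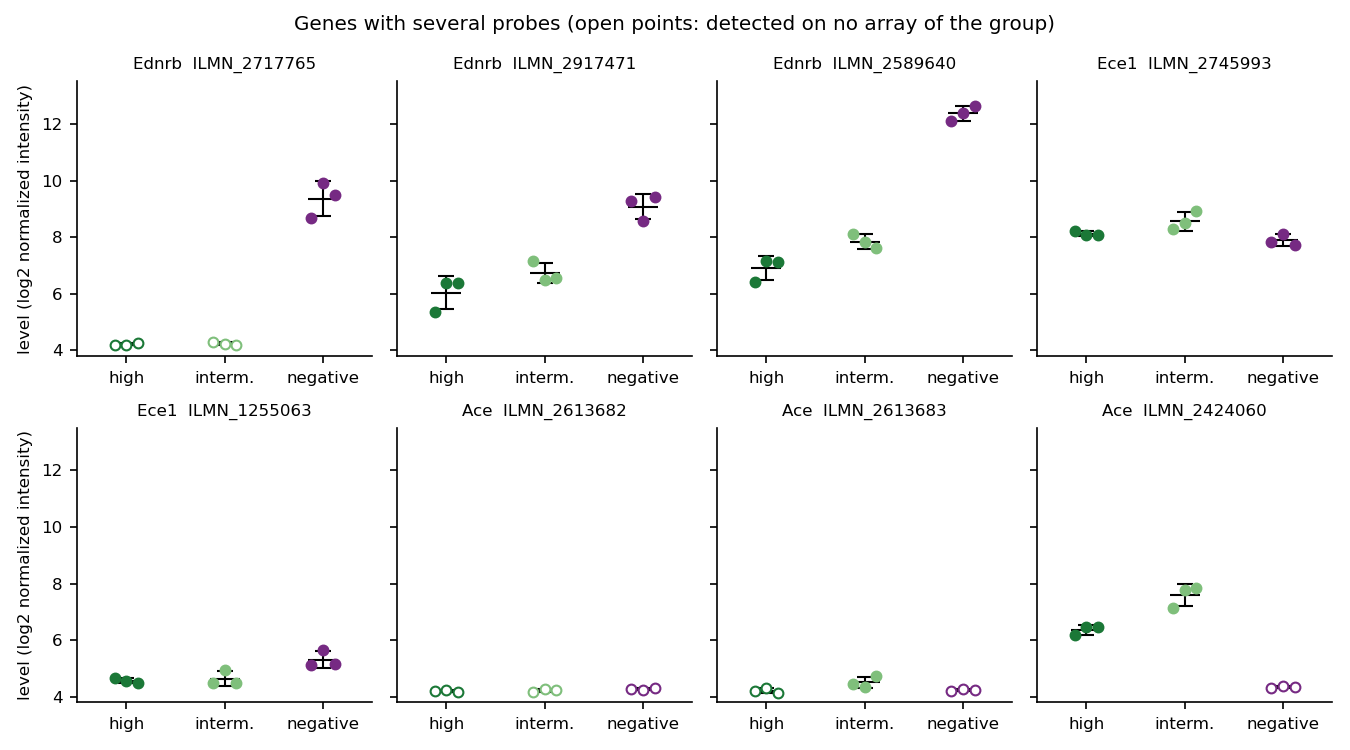
Level of every probe of Ednrb, Ece1 and Ace (y axis, log2 normalized intensity) in the 3 groups (x axis). Points are arrays, bars are mean ± SD (n = 3), and open points mark groups in which no array detected the probe. The 3 Ednrb probes share their direction, the 2 Ece1 probes do not, and of the 3 Ace probes a single one rises above background.

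Agtr1a (chromosome 13; ILMN_2972521), the main angiotensin receptor of mouse liver, was detected on every array. It read 9.11, 9.18 and 8.08 in WT1-high replicates 1, 8 and 29 and 8.49, 9.16 and 7.59 in WT1-intermediate replicates 1, 8 and 30. The WT1-negative arrays read 5.06, 5.59 and 4.88, below all 6 in vivo arrays. Agtr1a was higher by 3.62 ± 0.39 in WT1-high (SE; adjusted p = 1.3e-05) and by 3.24 ± 0.39 in WT1-intermediate cells (adjusted p = 3.6e-05). The in vivo groups overlapped, with means of 8.79 ± 0.62 and 8.41 ± 0.79 (SD, n = 3). Their difference of 0.38 had a 95% interval of -0.47 to 1.23 (adjusted p = 0.67), and arrays 29 and 30 were the lowest of their groups.

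Upstream sequence is shown for 3 members called against culture, Ednrb and Edn1 lower in vivo and Ace higher. Windows of 250 bases before a RefSeq transcript start (build GRCm38.p6) were matched for 6 members, and Agtr1a had no entry. Motifs were searched on both strands. The TATA box was searched as TATAAA, which 12.4% of all 32851 windows of this length hold, and the GC box as GGGGCGG, which 21.0% hold. The CCAAT box was found in 33.8%. The AP-1 site was searched as TGACTCA and found in 4.46%, and the EGR site, which can overlap a GC box, as GCGGGGGCG and found in 2.57%. Capitals mark matches, with positions counted from the start. The Ednrb window, chr14:103843702-103843951 on the minus strand, held a CCAAT box on its reverse strand at -146 and -106, and the Edn1 window, chr13:42301226-42301475 on the plus strand, held it at -203.
Ednrb: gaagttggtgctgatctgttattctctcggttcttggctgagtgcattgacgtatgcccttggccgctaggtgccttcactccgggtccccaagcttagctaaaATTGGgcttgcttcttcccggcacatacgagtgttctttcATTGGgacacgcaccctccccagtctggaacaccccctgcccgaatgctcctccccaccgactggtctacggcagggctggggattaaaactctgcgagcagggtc
Edn1: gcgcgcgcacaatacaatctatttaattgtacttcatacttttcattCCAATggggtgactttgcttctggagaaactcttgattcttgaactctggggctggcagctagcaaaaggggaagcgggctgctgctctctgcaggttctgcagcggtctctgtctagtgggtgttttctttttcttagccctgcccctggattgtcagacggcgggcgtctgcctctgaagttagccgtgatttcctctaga
The more upstream of the 2 Ace starts, chr11:105967698-105967947 on the plus strand, had a TATA box on the reverse strand at -31 and a GC box at -76. AP-1 and EGR letters were not in these 3 windows.
Ace: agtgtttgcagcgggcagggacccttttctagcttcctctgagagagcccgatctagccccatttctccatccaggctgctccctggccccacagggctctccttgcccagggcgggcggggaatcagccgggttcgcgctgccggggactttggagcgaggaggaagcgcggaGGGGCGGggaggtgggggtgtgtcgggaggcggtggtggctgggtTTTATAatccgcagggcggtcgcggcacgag

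Counted over probes, 2 of 10 tested members were called between WT1-high and WT1-intermediate, both lower in WT1-high. Over all 20573 tested probes 3.55% were called, 0.904% higher and 2.64% lower (186 and 544 probes). Under median scaling 2510 probes were higher and 121 lower, no member was called by limma, and none had an unadjusted p under 0.05. With a random replicate block 1752 probes were called in place of 730, and with 29 and 30 as a further fixed pair 1656. Leaving out WT1-intermediate replicate 1, WT1-high replicate 8 or WT1-high replicate 29 left 324, 333 and 371 calls. The median difference of the 7 genes on their brightest probes was -0.65, beside 0.05 over all tested probes.

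Against WT1-negative cells 8 of 10 member probes were called in each comparison, beside 59.6% of all tested probes for WT1-high and 58.0% for the WT1-intermediate group. In WT1-high 2 were higher (background 26.5%) and 6 lower (background 33.1%). In WT1-intermediate 3 were higher (background 24.4%) and 5 lower (background 33.6%), while median scaling gave 2 and 6 and turned the share of higher calls over all probes from 42.1% to 23.1%. These counts are not 8 separate genes, since 3 of the probes read Ednrb, and the Ace probe and an Ednrb probe passed the filter through the higher groups alone. On their brightest probes the members' medians were 0.07 and -0.02, beside -0.10 and -0.13 over all probes, since the 7 genes moved in opposite directions.

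**Figure D3:**
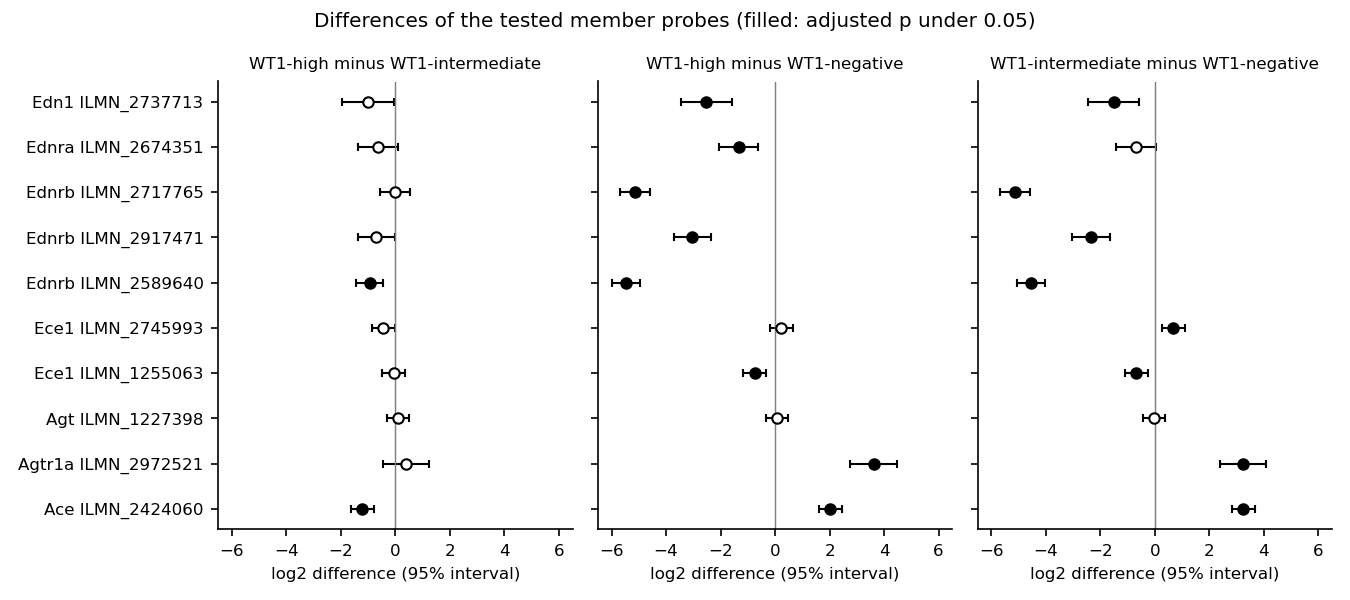
Log2 difference of each tested member probe (x axis, with 95% interval from limma) in the 3 comparisons, filled where the adjusted p was under 0.05. Differences span -5.48 (Ednrb) to 3.62 (Agtr1a) against WT1-negative cells and lie between -1.22 (Ace) and 0.38 (Agtr1a) within the in vivo cells.

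Among the other genes of the endothelin pathway, Edn2, which encodes a second endothelin peptide, went the opposite way to Edn1. Edn2 read 8.01, 8.54 and 8.95 in WT1-high and 6.32, 7.53 and 7.53 in WT1-intermediate arrays, and was detected on no culture array (4.19 to 4.34). Its excess over culture was at least 14.9-fold in WT1-high (adjusted p = 8.8e-07) and at least 5.74-fold for WT1-intermediate cells (adjusted p = 2e-05). Edn2 also passed the filter through the in vivo arrays alone, so it had to differ from culture. The in vivo groups did not overlap, and Edn2 was higher in WT1-high by 1.37 ± 0.32 (SE; adjusted p = 0.039). That call was lost under 11 of 20 alternatives (adjusted p 0.00074 to 0.16), among them leaving out WT1-intermediate replicate 1, WT1-high replicate 8 or 29, or any WT1-negative array. Ece2, a further converting enzyme, was lower in both in vivo groups, by -1.41 (adjusted p = 0.00052) and -1.17 (adjusted p = 0.002). Of the 7 listed genes the other 5 (Edn3, Ecel1, Mme, Kel and Phex) were detected on too few arrays to be tested.

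Of 19 further genes of the renin and angiotensin system 12 could be tested, Ren2 was not matched by symbol, and Agtr1b, Mas1 and Enpep were detected on no array. Between WT1-high and WT1-intermediate 2 of the 12 were called, both lower in WT1-high (list median -0.19), beside 3.55% of all tested probes. Anpep, an aminopeptidase that trims angiotensin peptides, read 5.96, 5.51 and 5.93 in WT1-high, 7.66, 7.43 and 7.92 in WT1-intermediate, and 8.56, 8.82 and 8.63 in WT1-negative arrays. The 3 groups formed separate steps. Anpep differed by -1.87 ± 0.18 between the in vivo groups (SE; adjusted p = 0.00038), by -2.87 between WT1-high and WT1-negative (adjusted p = 2.1e-07) and by -1.0 between WT1-intermediate and WT1-negative (adjusted p = 0.00065), and all 3 calls held under every alternative run. Ctsd, a lysosomal aspartic protease able to cut angiotensinogen, was lower in WT1-high than in WT1-intermediate by -0.97 (adjusted p = 0.0078), a call lost under median scaling.

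Against culture 3 of the 12 genes were higher and 6 lower in WT1-high (median -0.35), and 3 higher and 5 lower in WT1-intermediate (median 0.04). Over all tested probes 26.5% were higher and 33.1% lower in WT1-high, and 24.4% and 33.6% in WT1-intermediate. Of the genes counted as higher in WT1-high, Prep (0.57, adjusted p = 0.045) was lower on probes ILMN_1259561 and ILMN_2549494 (-1.19 and -0.65, adjusted p = 1.5e-05 and 0.0028). Prcp, a carboxypeptidase that cuts angiotensin II, was lower by -1.04 and -0.85 (adjusted p = 0.0004 and 0.0017). Atp6ap2, the prorenin receptor, was lower in WT1-high by -0.89 on its brightest probe (adjusted p = 0.00024) and by -2.11 to -2.34 on its 3 other probes. In WT1-intermediate it was lower by -0.61 (adjusted p = 0.0032) and by -1.83 to -2.26 on the same probes.

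Downstream of these receptors 29 of 36 listed signalling genes were tested. Between the in vivo groups 1 was called (list median 0.07), Gna13, a G protein alpha subunit, lower in WT1-high by -1.0 (adjusted p = 0.0082) although not under median scaling. The other Gna13 probe, ILMN_1249934, was not called there (-0.44, adjusted p = 0.51), and the groups overlapped on it. Against culture 7 were higher and 12 lower in WT1-high (median -0.33), and 5 higher and 11 lower in WT1-intermediate (median -0.24). The shares over all tested probes were 26.5% and 33.1%, and 24.4% and 33.6%, with 3.55% called between the in vivo groups. Itpr1, the calcium channel opened by inositol trisphosphate, was higher by 2.35 and 2.22 (adjusted p = 6.4e-06 and 1.2e-05). On Itpr1 probe ILMN_1254130, detected on 4 arrays, the differences were 0.27 and 0.76 (adjusted p = 0.32 and 0.012). Gna11, a Gq-class subunit, was higher by 1.59 and 1.05, and Jak2 by 1.28 and 0.88 (adjusted p = 5.6e-06, 0.00015, 0.00026 and 0.0033), where the WT1-intermediate calls of both were lost under median scaling. Myl9, the regulatory light chain that contraction acts through, was lower by -2.32 and -2.31 (adjusted p = 8.3e-06 and 1.1e-05). Arrb2, a receptor arrestin, was lower by -2.10 and -1.29 (adjusted p = 5.4e-06 and 0.00023). Cyba, a subunit of the phagocyte oxidase, was lower by -2.10 and -1.22 (adjusted p = 2.5e-05 and 0.0014). Gna12 was lower by -1.94 and -1.65 (adjusted p = 3.6e-05 and 0.00014).

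On their brightest probes, genes of the opposing, relaxing pathways (16 of 19 tested) included 2 genes called between the in vivo groups, Ptgis and Nppb. Ptgis, prostacyclin synthase, read 12.82, 12.97 and 12.79 in WT1-high, 11.79, 12.12 and 12.39 in WT1-intermediate, and 9.10, 8.94 and 9.17 in WT1-negative arrays. It was higher in vivo by 3.79 and 3.03 (adjusted p = 2e-08 and 1.3e-07) and WT1-high exceeded WT1-intermediate by 0.76 (adjusted p = 0.035; lost under 10 of 21 alternatives, among them leaving out any in vivo array but WT1-intermediate replicate 30, or WT1-negative replicate 3 or 14). Nppb, a natriuretic peptide, was higher in WT1-high by 0.88 (adjusted p = 0.0088), with levels of 5.42 to 5.74 against 4.51 to 4.82. The cyclic GMP pathway genes Gucy1a3 (3.05 and 1.80) and Prkg1 (1.43 and 1.25) were higher in both in vivo groups on their brightest probes (adjusted p = 0.00023, 0.0075, 0.00062 and 0.0016), with both WT1-intermediate calls lost under median scaling. On Gucy1a3 probes ILMN_1241211 and ILMN_1228564 WT1-high exceeded WT1-intermediate by 1.49 and 1.27 (adjusted p = 0.024 and 0.022). There WT1-intermediate was not called against culture (0.62 and 0.43, adjusted p = 0.11 and 0.17). Prkg1 probe ILMN_2693295 was not called against culture either (0.04 and 0.29, adjusted p = 0.88 and 0.24). Npr3, the natriuretic peptide clearance receptor, and the prostacyclin receptor Ptgir were detected on no WT1-high array and were at least 4.21-fold and at least 1.60-fold lower there (adjusted p = 1.1e-07 and 0.00052). Npr3 was detected on 1 WT1-intermediate array and Ptgir on 2, with differences from culture of -2.25 and -0.60 (adjusted p = 2e-07 and 0.0026). Npr3 and Ptgir reached 3 detected arrays only with the culture group, where they were highest, so the filter favoured a difference from culture. Nppb was detected on no culture array. Nos3, endothelial nitric oxide synthase, was lower by -1.20 and -0.62 (adjusted p = 0.00032 and 0.019), the latter call being lost under 5 of 19 alternatives, among them leaving out WT1-intermediate replicate 1 or 30 or WT1-negative replicate 3. In all, 6 genes of this list were higher and 4 lower in WT1-high against culture (median 0.19), and 7 and 4 in WT1-intermediate (median 0.53). The shares over all tested probes were 26.5% and 33.1%, and 24.4% and 33.6%. Between the in vivo groups the list median was 0.00, and 3.55% of all tested probes were called.

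**Figure D4:**
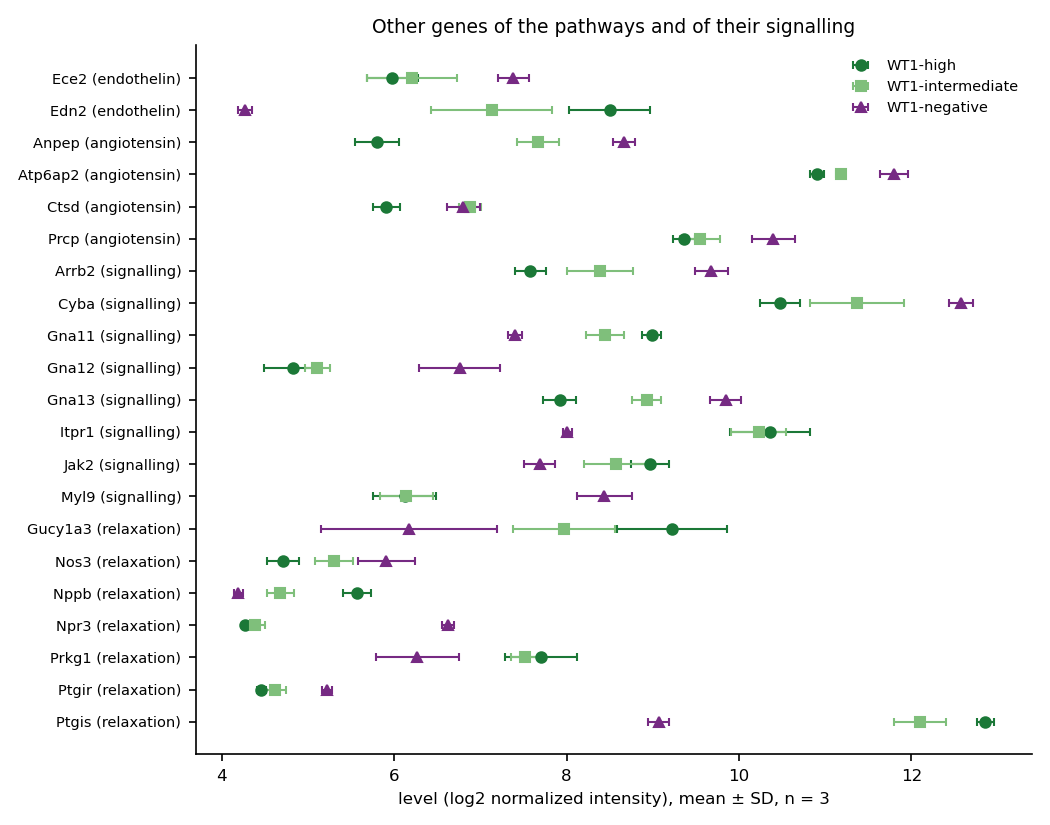
Mean level ± SD (x axis, log2 normalized intensity, n = 3) of the other endothelin, angiotensin, receptor signalling and relaxing genes named in the text (y axis), with a circle for WT1-high, a square for WT1-intermediate and a triangle for WT1-negative aHSCs. Edn2, Itpr1, Gucy1a3 and Ptgis lie to the right in vivo, and Ece2, Anpep, Myl9 and Npr3 in culture.

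The labelled cell type was checked against its markers. Of 17 stellate genes, Des, Dcn, Ecm1, Acta2, Col1a2 and Timp1 were detected on all 9 arrays, whereas Lrat was detected on 1 array and Lhx2 and Gfap on 0. Their summed intensity over the 14 tested genes was 21800 to 27500 in WT1-high, 19400 to 27800 in WT1-intermediate and 14500 to 16800 in WT1-negative arrays. Of these genes 7 were higher and 5 lower in WT1-high than in culture, and 6 and 4 in WT1-intermediate. Colec11 and Hand2, among the higher in both groups, were detected on no culture array and passed the filter through the in vivo arrays alone. Dcn (2.26 and 2.58) and Col1a2 (2.69 and 2.39) were higher in both in vivo groups. Acta2 (-1.78 and -2.55) and Col1a1 (-1.4 and -1.26) were lower in both, whereas Pdgfrb and Hgf were lower in WT1-high only. Over all tested probes 26.5% were higher and 33.1% lower in WT1-high than in culture, and 24.4% and 33.6% in WT1-intermediate. Between the in vivo groups 2.64% were lower in WT1-high. These shares stand beside all marker counts here. Genes of other cell types moved with the groups too. Endothelial cells express Edn1, Ednrb, Ace and Nos3, and of 16 endothelial genes, all tested, 9 were lower and 3 higher in WT1-high than in culture, and 8 and 5 in WT1-intermediate. Emcn, Vwf and Stab1 were lower in WT1-high than in culture by -2.95, -2.0 and -2.26, whereas Clec4g and Esam were higher by 2.76 and 2.62 (adjusted p from 1.2e-07 to 4.8e-05). Between the in vivo groups 5 of the 16 were lower in WT1-high, as were Ace and the brightest Ednrb probe. The list's summed intensity was 4740 to 5100, 4490 to 6100 and 2720 to 3750 in the 3 groups, highest in vivo although more of its genes were called higher in culture.

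Macrophage genes differed more. Of 17, all tested, 12 were lower in WT1-high than in WT1-intermediate. Against culture 12 were lower and 2 higher in WT1-high, and 8 lower and 4 higher in WT1-intermediate. On their brightest probes Lyz1, Clec4f, Marco and Ptprc exceeded culture in WT1-intermediate, by 4.48, 2.67, 2.37 and 2.26. Clec4f and Ptprc, called above culture in both groups, were detected on no culture array. The summed intensity of the macrophage list was 5420 to 8680 in WT1-high, 17500 to 29500 in WT1-intermediate and 62000 to 67300 in WT1-negative arrays. The members Edn1, Ednra and Ednrb shared that order of group means, as did Anpep, Arrb2, Nos3 and others. Mesothelial genes ran the other way, all 10 higher in both in vivo groups than in culture. Among them Lrrn4, Krt19, Gpm6a, Dmkn and Muc16 were detected on no culture array. Those passed the filter through the in vivo arrays alone and so had to differ. The sums of the list were 34200 to 39600, 20200 to 28000 and 340.0 to 431. The member Agtr1a shared that order of group means, as did Edn2, Ptgis, Gna11 and others on their brightest probes. With 3 groups, many genes share either order. Smooth muscle and pericyte genes summed to 397 to 428, 310.0 to 421 and 897 to 1000, fibroblast genes to 4220 to 6090, 6420 to 10700 and 1710 to 2860, and hepatocyte genes to 6740 to 10500, 3370 to 5530 and 3700 to 5020. Of 8 tested fibroblast genes 6 were higher and 1 lower than in culture, in WT1-high and in WT1-intermediate alike. Dpt, among the higher, was detected on no culture array. Between the in vivo groups 2 of the 8 were lower in WT1-high and 0 higher. The member Ace shared the order of the fibroblast sums. Most of the hepatocyte sums came from Trf, which averaged 12.54, 11.72 and 11.89. Apoa1, Apoa2, Ttr and Ahsg were called higher in both in vivo groups than in culture, and Hnf4a lower. The part of each of these cell types in the differences of the endothelin and angiotensin genes was not tested.

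**Figure D5:**
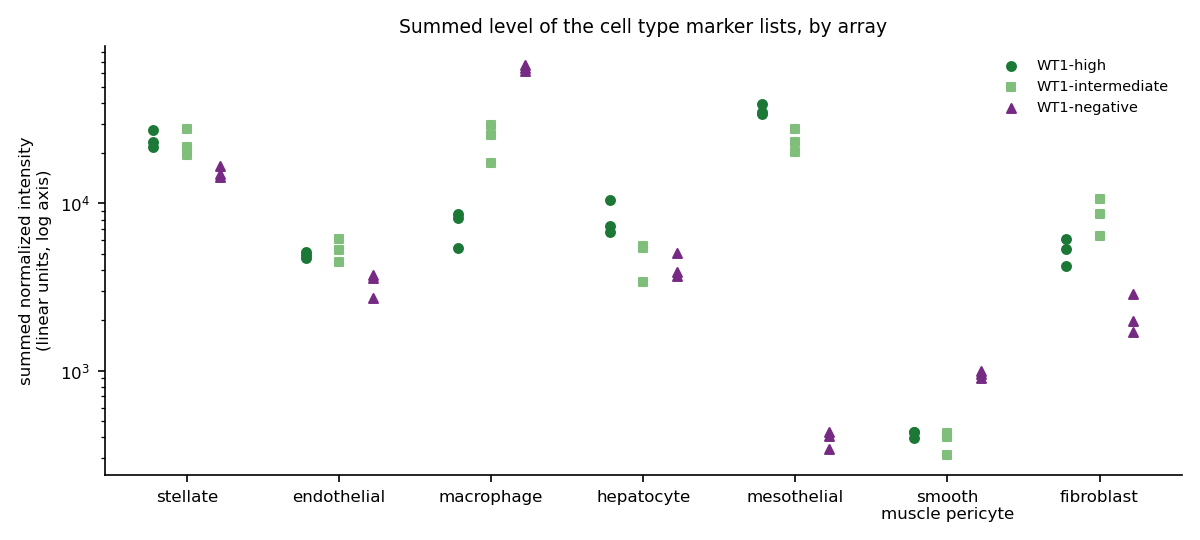
Summed normalized intensity of each cell type marker list (y axis, linear units on a log axis; x axis, the lists) on each of the 9 arrays, by group. The macrophage sums are highest in WT1-negative arrays (62000 to 67300) and the mesothelial sums are lowest there (340.0 to 431).

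The genes whose profile over the 9 arrays was most like each member are given as a description, since points share their group, normalization and hybridization. Brightest Ednrb probe levels followed those of Nes, LOC330052 and Rwdd2 (Pearson's r = 0.9965, 0.9963 and 0.9956), and 1314 tested probes of other genes reached r of 0.95. Agtr1a was most like Bmp4, D630040I23Rik and Lrp2 (r = 0.9945, 0.9940 and 0.9939; 621 probes), and Ace most like Pcsk6, Htra3 and Hsd11b1 (r = 0.9932, 0.9930 and 0.9888; 114 probes). Edn1 was like 8430401F14Rik and Bcl2l1 (r = 0.9768 and 0.9689; 13 probes). For Ednra the nearest were Vldlr, Thbs2 and Rgs16 (r = 0.9519, 0.9431 and 0.9331), for the brighter Ece1 probe BC065085, Htra3 and Cebpd (r = 0.9519, 0.9289 and 0.9270), and for Agt, near background throughout, EG632802, Paqr9 and A630046I07Rik (r = 0.9220, 0.9098 and 0.9000). The profiles of the brightest Ednrb probe and of Agtr1a were thus shared more widely than those of Ednra and the brighter Ece1 probe. The latter had 1 such probe each, whereas the dimmer Ece1 probe had 59.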

How the data were processed

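Expression was measured on 9 Illumina MouseWG-6 v2.0 arrays. The deposited values were BeadStudio summary probe profiles, which hold a raw linear intensity for each probe, before any background correction or normalization by the authors, and a deposited detection p-value. The authors' own analysis used limma. A deposited joined table held the same intensities (largest difference 0).

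The neqc function of limma 3.58.1 (R 4.3.3) was applied to these (with 936 negative controls, offset 16, quantile normalization, log2). Kept were probes detected, at a detection p under 0.05, on 3 or more arrays (20573 of 45281; the study states no filter). A 3-group linear model took in the 9 arrays together, with 6 residual degrees of freedom and 5.19 from the prior, without a replicate block, after the study's methods. Each adjusted p is from limma's moderated two-sided test, adjusted by Benjamini-Hochberg over all 20573 probes. Where no array of the dimmer group detected a probe, the fold is a lower bound ("at least") against each array's lowest level among detected probes. The column of WT1-intermediate replicate 30 carries the number 29 in its table and was identified by its group.

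The in vivo arrays came from 3 animals per the study, and deviations from group means correlated at 0.35 (replicates 1), 0.34 (replicates 8) and 0.47 (29 with 30), against -0.39 to 0.03 for the other 6 combinations, so numbers were taken as pairs in alternative fits. Precision is limited by how few arrays there are.

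Named genes were all member probes; up to 5 called genes per comparison of the other endothelin and angiotensin genes; the 3 largest called rises and falls of the signalling and relaxing lists; and the 3 genes most like each member. A gene was given by its brightest tested probe. Marker genes were named from lists as examples chosen after their values were seen. The members and lists were chosen with earlier results of these data known. In simulated arrays (20573 probes), 61 of 100 probes changed by 1 log2 unit and 97 of 100 changed by 2 were recovered for WT1-high against WT1-intermediate, with 12 false calls. Sequences are those of the deposited annotation and of RefSeq (GRCm38.p6). Alternatives covered background correction, offset, normalization, filter, arrays in the fit, weights, variance model, replicate block and leaving out each array. Wherever replicates are not stated to come from separate cultures or animals, p-values measure only the spread between these samples. A few genes that these rules would name are not reported here.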

Additional observations from a re-analysis of the deposited data

How the results depend on the processing

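Against WT1-negative cells the directions and calls of Edn1 (WT1-high), Ednra (WT1-high), Ednrb, Agtr1a and Ace held under every alternative in which their probes were tested. For Ace and the Ednrb probe ILMN_2717765, which passed the filter through the higher group alone, this says nothing about stability. Of 560 member values under alternatives 526 kept their direction and side of the threshold, 18 lost and 3 gained a call, and 13 changed sign, of which 1 had been a call (the brighter Ece1 probe). The number of member probes called between WT1-high and WT1-intermediate (2) was 1 without background correction, with an offset of 50, without a filter, with detection on all 9 arrays, with the compared groups alone, with array weights and with the fixed replicate block, 0 under median scaling, and 1 to 2 when an array was left out. All probes called there (730) numbered 2631 under median scaling, 335 without a filter, 339 with the compared groups alone, 1752 with a random replicate block, 1656 with the fixed replicate block that pairs 29 and 30, and 324 to 866 when an array was left out. Requiring detection on all 9 arrays (12749 probes) left 5 member probes called in both comparisons with WT1-negative cells and 7970 and 7716 probes in all, with fewer probes tested; leaving out a WT1-negative array made the Ednrb probe ILMN_2717765 untestable there. Median scaling moved the median of all tested probes to 0.45 (WT1-high minus WT1-intermediate) and -0.44 (WT1-intermediate minus WT1-negative); the brighter Ece1 probe changed sign in both (0.26 and -0.06), but not relative to those medians (-0.19 and 0.38). Agt, near background, changed sign under array weights (0.00 and -0.04), the fixed replicate block (-0.14), cyclic loess (0.11), the random replicate block (0.02) and, against WT1-negative cells, when an array was left out (range -0.08 to 0.04). Between the in vivo groups, leaving out 1 array gave Ednrb ILMN_2717765 values up to 0.01, Ece1 ILMN_1255063 -0.16 to 0.10 and Agtr1a -0.03 (without WT1-intermediate replicate 30) to 0.76. The cause of these changes was not tested. Apart from Ednrb and the counts given, no member call between the in vivo groups depended on the replicate block. A block by beadchip was not run, since the headers used here name no chip. With 3 arrays per group and dim probes such as Agt, small differences could be missed.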
